A study of Mus musculus with 9 samples.

Results

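A set of 10 imprinted genes of the mouse nucleus accumbens is described across a saline, a cocaine and a withdrawal library: Peg10, Peg3, Meg3, Rian, Dlk1, Ndn, Snrpn, Nnat, Zrsr1 and Magel2. They were taken by symbol from a table of 21423 genes, all 10 were present, and all 10 passed the filter on low values. The symbols were chosen by their measured RPKM and its differences between these same libraries, so the differences are descriptions and support no general statement on imprinted genes. The study measured poly(A) RNA from the nucleus accumbens, a ventral striatal region of reward learning, in adult male C57BL/6 mice aged 2 to 5 months. The saline group received 10 ml/kg of saline daily, intraperitoneally, for 7 days. The cocaine group received cocaine at 10 or 20 mg/kg daily by the same route for 7 days, and which dose a sample had is not given in the labels. In these groups tissue was taken 24 h after the last injection, and in the withdrawal group, injected with cocaine in the same way, 8 days after it. No group carried a transgene or a deletion per the labels. Each group is 1 library made from the pooled RNA of 8 mice and read in 3 sequencing lanes, so the spread between lanes covers sequencing only, n is 1 library per group, and no difference has a replicate check or a p-value.

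Imprinted genes are transcribed mainly from the copy inherited from one parent, and most lie in clusters controlled by a region whose DNA methylation differs between the parental copies. Many act in growth, in placental function and in the developing brain, and several remain strongly expressed in neurons of the adult forebrain and hypothalamus. The mice were inbred and the values do not separate parental copies, so only the total RNA of each gene is reported.

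Levels are RPKM, a read count scaled to the length of the gene model and to the depth of the lane, and differences are means of log2(RPKM + 0.5) over the 3 lanes of each library, with the standard error over lanes. A difference was called if it reached 1.5 times and the lanes of both libraries did not overlap. Calls were made among the 14051 genes that averaged 1 RPKM or more over the 9 lanes. Lane totals ran from 5546362 to 12026754, and the libraries summed to 26006605 for saline, 24219333 for cocaine and 19452882 for withdrawal. Over all tested genes the median difference was -0.047 for cocaine minus saline and -0.056 for withdrawal minus saline. Longer gene models had higher values in the cocaine and withdrawal libraries: across genes, which are not independent replicates, Spearman's rho of the difference with length was 0.464 and 0.422 against saline, and 0.0128 for withdrawal minus cocaine. Each difference is therefore also given relative to the median of genes of like length, in 20 bins. The calls over all genes, 411 higher and 338 lower for cocaine and 557 and 473 for withdrawal against saline, became 477 and 98, and 592 and 176, on that scale. With lanes scaled to a common 75th percentile they became 535 and 204, and 765 and 280.

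Sequences upstream of a member that differed between the libraries and of a member that did not, Peg3 and Meg3, are shown together because both are promoters whose methylation is known to differ between the parental copies. Each is the 250 bases before a RefSeq transcript start (GRCm38.p6), 5′ to 3′ on the gene's strand, with capitals marking TGCCGC or its reverse complement GCGGCA, the hexamer that the zinc finger protein ZFP57 binds when its CpG is methylated.
Peg3, chr7:6730420-6730669, minus strand: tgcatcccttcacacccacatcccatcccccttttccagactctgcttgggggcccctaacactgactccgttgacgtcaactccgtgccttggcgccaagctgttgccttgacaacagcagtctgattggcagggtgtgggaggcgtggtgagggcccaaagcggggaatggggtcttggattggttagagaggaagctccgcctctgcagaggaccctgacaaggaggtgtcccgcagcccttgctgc
Meg3, chr12:109540746-109540995, plus strand: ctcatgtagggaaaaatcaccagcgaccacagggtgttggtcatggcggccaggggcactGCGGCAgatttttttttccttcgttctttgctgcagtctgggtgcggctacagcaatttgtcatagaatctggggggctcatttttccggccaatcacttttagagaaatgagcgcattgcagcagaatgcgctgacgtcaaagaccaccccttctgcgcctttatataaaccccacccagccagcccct
The Meg3 window shown holds 1 match and 10 CpGs, and the Peg3 window holds no match and 8 CpGs. A second RefSeq window of Meg3, not shown, holds 0 matches and 0 CpGs. Windows were found for 9 of the 10 members, Peg10 being the exception, and the Meg3 window shown was the only one of their 13 windows with a match. For comparison, 8.68% of 32851 RefSeq windows of the same length hold the hexamer on either strand. The RefSeq windows of Peg3 and of its neighbour Usp29, which is transcribed the other way, share 263 of their 300 bases, so these genes start from one shared stretch. A match is a run of letters and says nothing of binding in this tissue.

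Peg10 and Peg3 were the only members called in any comparison. Both were higher in the cocaine and in the withdrawal library than in the saline library. That is 2 of 10 members in each comparison with saline, where 5.33% of all tested genes were called for cocaine against saline (2.93% higher) and 7.33% for withdrawal against saline (3.96% higher). No member was called between withdrawal and cocaine, where 1.02% of genes were. The 2 comparisons with saline share the saline library. The median difference of the 10 members was -0.037 for cocaine minus saline, 0.012 for withdrawal minus saline and -0.031 for withdrawal minus cocaine, beside -0.047, -0.056 and -0.0074 over all tested genes.

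**Figure D1:**
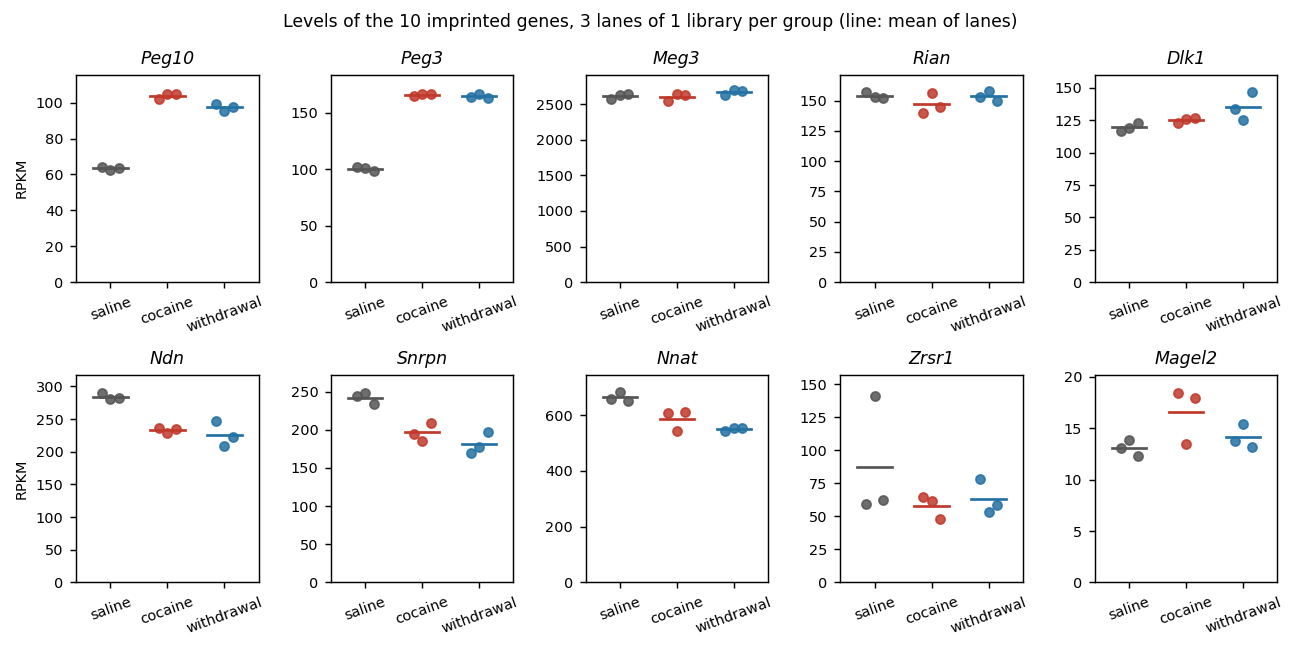
RPKM of the 10 members (vertical axes, each from 0) in the saline, cocaine and withdrawal libraries. Points are the 3 lanes of each library and lines their means. Peg10 and Peg3 lie higher in all cocaine and withdrawal lanes than in saline, Meg3 stays between 2551 and 2696 RPKM, and Zrsr1 has a single saline lane at 141 RPKM.

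Peg10, a paternally expressed gene on chromosome 6 derived from a retrotransposon, encodes Gag-like and Pol-like proteins and is needed for placental development. In the saline lanes it was at 64.0, 62.6 and 63.8 RPKM. In the cocaine lanes it was at 102, 105 and 105 RPKM, and in the withdrawal lanes at 99.1, 95.6 and 97.8 RPKM. The saline lanes thus lie far below the others, and the withdrawal lanes lie just below the cocaine lanes with no overlap. The difference was 0.71 ± 0.017 for cocaine minus saline, a ratio of mean RPKM of 1.64, and 0.61 ± 0.018 for withdrawal minus saline, a ratio of 1.54. Withdrawal minus cocaine was -0.095 ± 0.02 and was not called. The coefficient of variation between lanes was at most 1.81%, close to the counting error of 1.34 to 1.70% that 2637 to 6207 reads per lane give.

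Peg3, a paternally expressed gene on chromosome 7, encodes a large zinc finger protein known for its part in growth and in maternal and feeding behaviour. It stood at 102, 101 and 98.3 RPKM in the saline lanes and at 165, 167 and 167 RPKM in the cocaine lanes. The withdrawal lanes gave 164, 167 and 163 RPKM. Cocaine and withdrawal lanes overlap each other and both lie above saline. The difference was 0.73 ± 0.015 for cocaine minus saline and 0.71 ± 0.017 for withdrawal minus saline, ratios of 1.66 and 1.64, and -0.014 ± 0.011 for withdrawal minus cocaine.

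Both genes have long models, 6628 bp for Peg10 and 9643 bp for Peg3, against a median of 3531 bp over the tested genes. Genes of like length had a median difference of 0.10 for Peg10 in both comparisons with saline, and of 0.21 and 0.20 for Peg3. Relative to those medians Peg10 differed by 0.61 for cocaine and by 0.51 for withdrawal, and Peg3 by 0.52 and 0.51. On this scale 1 of 10 members, Peg10 for cocaine against saline, still passed 1.5 times, beside 4.09% of all genes, and none did for withdrawal against saline, beside 5.47%. The part of gene length in these differences was not tested further.

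**Figure D2:**
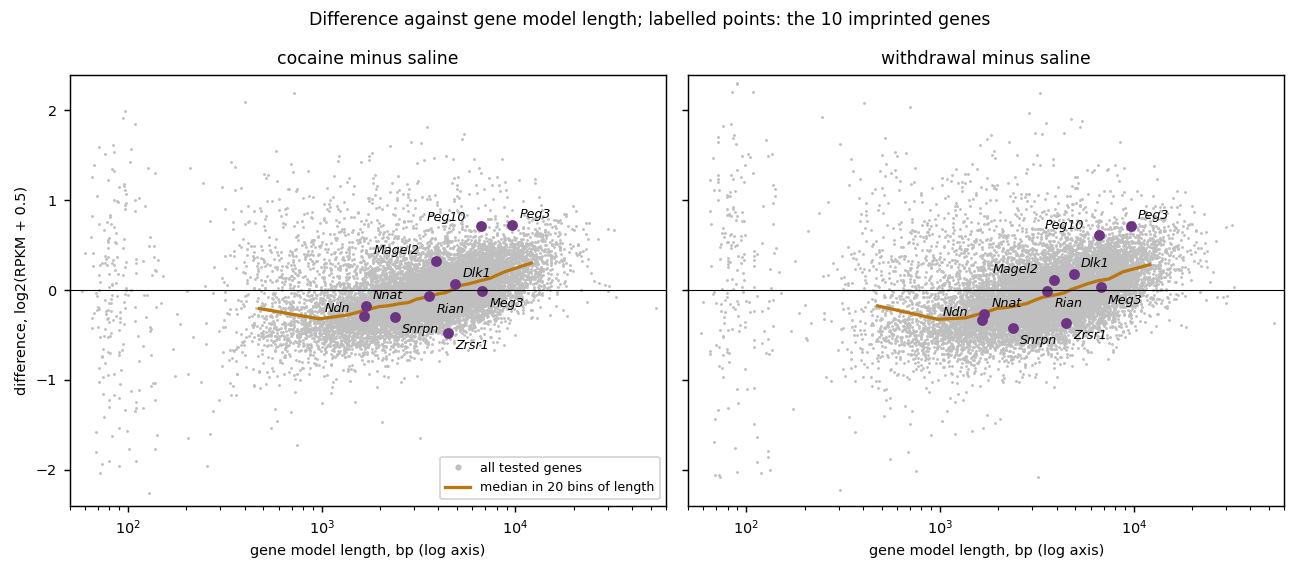
Difference in log2(RPKM + 0.5) from the saline library (vertical axis) against gene model length in bp (log axis) for cocaine (left) and withdrawal (right). Grey points are tested genes, a few of which lie outside the axes, the line is the median in 20 bins of length and labelled points are the 10 members. Peg10 and Peg3 lie above the line in both panels, whereas Ndn and Nnat lie near it.

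The neighbours of Peg10 differed from saline in both directions. Of the 7 tested genes of its cluster (9 listed), Peg10 alone was called against saline in either comparison. Among all tested genes 5.33% and 7.33% were called, and Peg10 itself was chosen by these values. Sgce, the epsilon-sarcoglycan gene that starts beside Peg10 and is transcribed away from it, was at 17.5, 19.7 and 15.2 RPKM in saline. It was at 14.0, 14.5 and 14.4 RPKM in cocaine and at 14.3, 14.7 and 14.7 RPKM in withdrawal. Its saline lanes lie above all others, a difference of -0.27 ± 0.11 for cocaine and -0.24 ± 0.11 for withdrawal that was not called. The level of Peg10 per level of Sgce was accordingly 3.18 to 4.21 in the saline lanes, 7.26 to 7.30 in the cocaine lanes and 6.51 to 6.91 in the withdrawal lanes. The ranges of saline and of the other libraries do not overlap, so this pair of neighbours was unequally represented in the libraries. This ratio is not centred by gene length, and the model of Peg10, 6628 bp, is longer than that of Sgce, 3085 bp. Ppp1r9a, which encodes the actin-binding protein neurabin and has a model of 11410 bp, lay above saline in all lanes of both libraries, at 24.7 to 25.9 RPKM in saline, 31.7 to 32.0 RPKM in cocaine and 33.3 to 34.8 RPKM in withdrawal. Its differences of 0.32 ± 0.02 and 0.41 ± 0.027 were not called. Pon2, which encodes a paraoxonase, lay below saline with no overlap of lanes, by -0.26 ± 0.058 and -0.22 ± 0.098. Relative to genes of like length Ppp1r9a differed by only 0.021 and 0.13, Sgce by -0.17 and -0.13 and Pon2 by -0.28 and -0.23. Calcr, the calcitonin receptor gene, differed by 0.47 ± 0.24 and 0.42 ± 0.24 with overlapping lanes. Asb4 differed by -0.24 and 0.099 and Casd1 by 0.085 and -0.07.

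In the Peg3 cluster 4 of 6 listed genes were tested, and 3 of the 4 were called higher against saline in both comparisons: Peg3, the zinc finger gene Zim1, and Zim3. Over all tested genes 2.93% and 3.96% were called higher, and Peg3 itself was chosen by these values. Relative to genes of like length 2 of the 4, Zim1 and Zim3, were called in each comparison. Zim1, which in mouse is expressed from the maternal copy, had lanes of 2.21, 3.12 and 3.36 RPKM in saline and of 6.68, 5.81 and 4.29 RPKM in cocaine. Its withdrawal lanes were at 6.04, 4.18 and 5.75 RPKM, and 72 to 193 reads per lane stand behind these values. No saline lane reached the others, with differences of 0.84 ± 0.23 and 0.78 ± 0.22. Zim3 was at 6.31 to 7.44 RPKM in saline, 11.4 to 13.4 RPKM in cocaine and 10.6 to 12.8 RPKM in withdrawal, differences of 0.79 ± 0.096 and 0.68 ± 0.10. Zim3 is uncertain, because it overlaps Usp29 on the opposite strand over 2582 exonic bases of the GENCODE annotation and the strand used in counting is not given in the sources used here. Usp29, which encodes a ubiquitin protease, differed by 0.29 ± 0.069 and 0.095 ± 0.085 and was not called. Relative to genes of like length Usp29 differed by -0.016 and -0.19. Peg3 per Usp29 was 6.84 to 7.25 in saline, 9.04 to 10.3 in cocaine and 9.82 to 12.0 in withdrawal, so genes that start from one shared stretch were unequally represented. The reads of Usp29 are uncertain through the same overlap with Zim3. This ratio is not centred by gene length, and the model of Peg3, 9643 bp, is shorter than that of Usp29, 13056 bp.

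Meg3, a maternally expressed long non-coding RNA retained largely in the nucleus, was by far the most abundant member. It was at 2574, 2635 and 2647 RPKM in saline, 2551, 2649 and 2625 RPKM in cocaine and 2636, 2696 and 2688 RPKM in withdrawal. The lanes of all 3 libraries overlap. The differences were -0.0057 ± 0.021 for cocaine minus saline and 0.03 ± 0.016 for withdrawal minus saline, and relative to genes of like length they were -0.11 and -0.072, so the sign for withdrawal turns with this centring. With lanes scaled to a common 75th percentile they were 0.066 and 0.10, where the sign for cocaine turns. Meg3 ranked number 5 of 21423 genes in the saline library and number 2 in the cocaine and withdrawal libraries. With 98523 to 208619 reads in a lane its counting error was 0.263 to 0.294%, below the 1.23 to 1.96% by which its lanes varied.

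Rian, the next non-coding RNA of the same chromosome 12 cluster and a host of small nucleolar RNAs and microRNAs, showed lanes of 157, 153 and 152 RPKM in saline. Its cocaine lanes were at 140, 156 and 145 RPKM and its withdrawal lanes at 153, 158 and 150 RPKM. All overlap, with differences from saline of -0.069 ± 0.049 and -0.0056 ± 0.025. The ratio of Meg3 to Rian stayed between 16.4 and 18.2 over the 9 lanes.

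Dlk1, the paternally expressed gene at the start of the cluster, encodes a membrane protein related to Notch ligands. It was at 117, 119 and 123 RPKM in saline, 123, 126 and 127 RPKM in cocaine and 134, 125 and 147 RPKM in withdrawal. Its withdrawal lanes lie above the saline lanes, by 0.17 ± 0.073, without reaching 1.5 times. Cocaine minus saline was 0.065 ± 0.026. Of the 7 tested genes of the cluster, which besides these members comprise Begain, Rtl1, Mirg and Dio3, 0 were called in any of the 3 comparisons. Among all tested genes the shares called were also small, 5.33% (cocaine against saline), 7.33% (withdrawal against saline) and 1.02% (withdrawal against cocaine). The median differences of the 7 genes were -0.063 for cocaine and 0.03 for withdrawal against saline. Dio3, which encodes a thyroid hormone deiodinase, came closest for cocaine, with -0.48 ± 0.25 on 36 to 129 reads per lane. Rtl1 and Mirg differed from saline by -0.063 and 0.015 for cocaine and by -0.06 and 0.16 for withdrawal.

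Meg3 also carries microRNA hairpins, and their mature RefSeq sequences are shown because the hairpins overlap annotated Meg3 exons. Capitals mark the seed, bases 2 to 8, and the coordinates are of the mature forms in GRCm38.p6, plus strand.
mmu-miR-770-5p, chr12:109563710-109563731: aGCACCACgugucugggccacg
mmu-miR-770-3p, chr12:109563744-109563765: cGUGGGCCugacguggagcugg
mmu-miR-1906, chr12:109544588-109544609: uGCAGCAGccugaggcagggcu
The 3 seeds differ. The library selected poly(A) RNA in fragments of about 200 bp, so mature microRNAs were not measured and these rows report longer RNA over the hairpins. Both rows lay far below Meg3 itself, which was at 2551 to 2696 RPKM, and the reason was not tested. The Mir770 row was at 215 to 303 RPKM (144 to 277 reads per lane) and the Mir1906-1 row at 409 to 607 RPKM (222 to 415 reads), with differences from saline of 0.17 and 0.03 for cocaine and of 0.30 and 0.33 for withdrawal. Neither was called, and RefSeq names a copy of the latter elsewhere, Mir1906-2, with which reads could be shared. Among the 61 microRNA genes that RefSeq places between Dlk1 and Dio3, 54 had a row and 29 were tested, a list made after values had been seen. The other 27 tested rows had at most 16 reads in a lane. Of the 29, 7 overlapped exons of Rtl1, which runs on the opposite strand to Meg3, and 11 lay within the span of Mirg.

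Ndn, Magel2 and Snrpn lie in the chromosome 7 cluster that is lost in Prader-Willi syndrome, and all are paternally expressed. Ndn encodes necdin, a MAGE family protein of postmitotic neurons. It was at 290, 280 and 282 RPKM in saline, 237, 228 and 234 RPKM in cocaine and 247, 208 and 222 RPKM in withdrawal. No saline lane overlaps the others, and the differences were -0.29 ± 0.024 and -0.33 ± 0.074. Its model is short, 1652 bp, and genes of like length had medians of -0.23 and -0.26. Relative to these Ndn differed by -0.061 and -0.078.

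Magel2, a single-exon relative of Ndn whose protein regulates ubiquitin ligases in endosomal sorting, was the lowest member. It was at 13.1, 13.9 and 12.3 RPKM in saline, 18.4, 13.5 and 17.9 RPKM in cocaine and 13.8, 15.4 and 13.2 RPKM in withdrawal. The lanes overlap in every comparison, and 296 to 617 reads stand behind a lane. The differences from saline were 0.32 ± 0.14 and 0.11 ± 0.08, and relative to genes of like length 0.36 and 0.16. Ndn per Magel2 was 20.2 to 23.0 in saline, 12.9 to 16.8 in cocaine and 13.5 to 17.9 in withdrawal, so the pair were in a different proportion in saline than in the other libraries. This ratio is not centred by gene length, and the model of Ndn, 1652 bp, is shorter than that of Magel2, 3869 bp. The part of length in the ratio was not tested.

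Snrpn encodes SmN, a neuronal protein of the spliceosome. Its lanes gave 245, 248 and 234 RPKM in saline, 195, 186 and 209 RPKM in cocaine and 169, 178 and 197 RPKM in withdrawal. Saline lies above both other libraries without overlap, by -0.30 ± 0.055 for cocaine minus saline and -0.42 ± 0.07 for withdrawal minus saline, and neither was called. Against genes of like length the differences were -0.13 and -0.23. Snurf, which shares a transcript with Snrpn, held 100.2 to 100.6% as many reads as Snrpn in every lane, so the 2 rows repeat the same reads and count as 1 measurement. Snrpb, the closest relative of Snrpn, was at 34.9 to 54.5 RPKM and could share some of its reads.

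Of the 7 tested genes of this cluster (10 symbols listed), 1 was called higher for cocaine and 2 for withdrawal, beside 2.93% and 3.96% of all tested genes. Snrpn and Snurf both count among the 7, although they are 1 measurement. The gene called in both was Ipw, a spliced non-coding RNA downstream of Snrpn. Its lanes were at 69.1, 63.4 and 74.0 RPKM in saline, 146, 157 and 143 RPKM in cocaine and 143, 130 and 138 RPKM in withdrawal. Saline is clearly below the others, by 1.11 ± 0.075 and 0.99 ± 0.076. Its model is short, 734 bp, so relative to genes of like length the differences were larger, 1.43 and 1.32. The ratio of Ipw to Snrpn was 0.255 to 0.316 in saline, 0.684 to 0.841 in cocaine and 0.700 to 0.848 in withdrawal. Ipw holds repeated units, so some of its reads could belong to more than 1 place in the cluster. Ipw and Snrpn thus differed from saline in opposite directions within 1 cluster. Atp10a, which encodes a phospholipid flippase, was called for withdrawal, at 0.62 ± 0.10 on 61 to 129 reads per lane; without saline lane 1 it was not called. Its difference for cocaine was 0.54 ± 0.11 and the libraries' difference from each other was 0.074 ± 0.057. Ube3a, the ubiquitin ligase expressed from the maternal copy in neurons, differed from saline by 0.21 and -0.088 with overlapping lanes.

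Nnat encodes neuronatin, a small membrane protein of the endoplasmic reticulum in neurons, and lies on chromosome 2 inside an intron of Blcap on the opposite strand. It was at 658, 682 and 652 RPKM in saline, 608, 542 and 612 RPKM in cocaine and 544, 553 and 554 RPKM in withdrawal. The saline lanes lie above all others, and the differences were -0.18 ± 0.06 and -0.27 ± 0.022, not called. Relative to genes of like length, whose medians were -0.23 and -0.26, they were 0.047 and -0.014, so the sign for cocaine turns. Blcap differed by -0.055 and 0.05. Neither gene of this pair was called.

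Zrsr1, a retrotransposed relative of a splicing factor gene, lies on chromosome 11 within Commd1 on the opposite strand, with 412 exonic bases in common. Its lanes were at 59.7, 141 and 62.3 RPKM in saline, 64.9, 61.9 and 47.9 RPKM in cocaine and 78.6, 53.6 and 58.3 RPKM in withdrawal. The second saline lane stands apart from every other lane of the same gene at 2.32 times the mean of the other saline lanes, and among 3895 genes averaging 20 RPKM or more it was the only one at 2 times or more in that lane. The value rests on 4021 reads. With all lanes the differences from saline were -0.48 ± 0.42 and -0.36 ± 0.44; without that lane they were -0.078 and 0.038. Even in the cocaine and withdrawal libraries its lanes varied by 15.5 and 20.9%, against a counting error of 2.20 and 2.36%. Commd1 was at 7.31 RPKM and the near copy Zrsr2 at 16.6 RPKM in the lane that stood apart, within their range in the other saline lanes or just below it. Over all lanes Commd1 lay below saline with no overlap, by -0.36 ± 0.088 for cocaine and -0.35 ± 0.1 for withdrawal. Relative to genes of like length Commd1 differed by -0.56 and -0.55, and it was called on neither scale. None of the 8 near copies of members (Snrpb, Zrsr2, Rtl1, Magee1, Maged1, Maged2, Mageh1 and Dlk2) was called in any comparison.

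**Figure D3:**
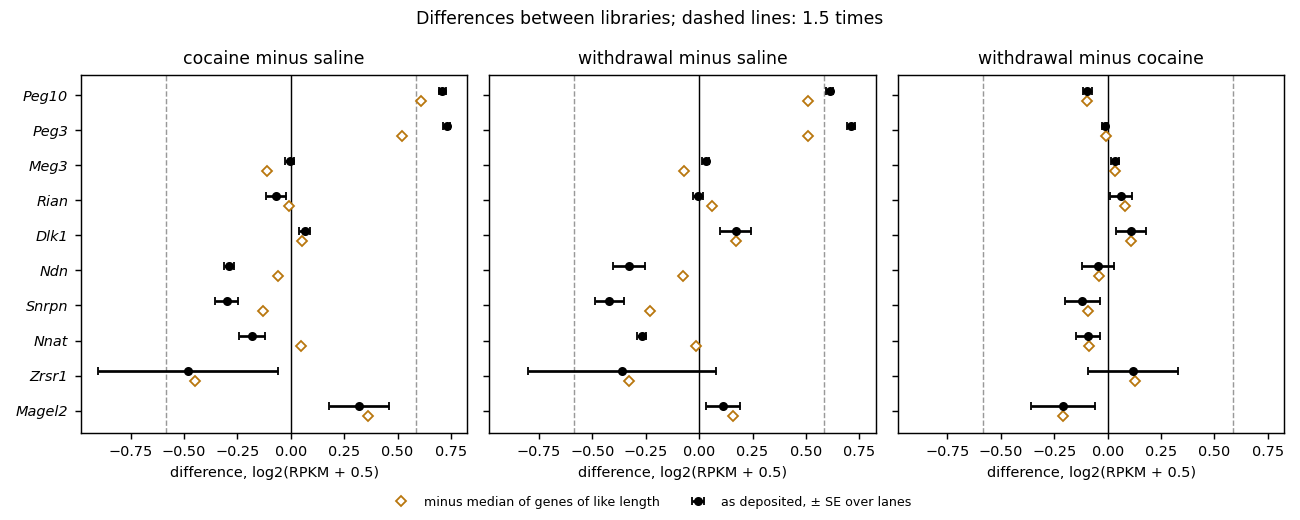
Difference in log2(RPKM + 0.5) between libraries (horizontal axes) for each member. Filled points are the values as deposited with the standard error over lanes, open diamonds are the same after subtracting the median of genes of like length, and dashed lines mark 1.5 times. Peg10 and Peg3 lie beyond the dashed lines against saline as deposited, and of the diamonds only that of Peg10 for cocaine does; all members lie near 0 or within the lines for withdrawal minus cocaine.

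Taking overlap of lanes at any size of difference, 5 of 10 members were apart for cocaine against saline (Peg10 and Peg3 higher, Ndn, Snrpn and Nnat lower), beside 42.1% of all tested genes (18.3% higher and 23.9% lower). For withdrawal against saline 6 of 10 were apart, Dlk1 being added on the higher side, beside 44.2% (18.6% higher and 25.6% lower). For withdrawal against cocaine Peg10 alone was apart, on the lower side, beside 18.1% of genes (9.42% lower). Shares of this kind are near those of all genes. The order of members by level was Meg3, Nnat, Ndn, Snrpn, Rian, Dlk1, Peg3, Zrsr1, Peg10 and Magel2 in saline, where the range of the Zrsr1 lanes took in those of Peg3 and of Peg10. In the cocaine and withdrawal libraries Peg3 stood above Rian and Dlk1, and Peg10 above Zrsr1, with no overlap of lanes. Other neighbours in the order did not overlap in any library.

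Of 70 other imprinted genes listed, 67 were in the table and 51 were tested; the remaining 16 were under the filter. For cocaine against saline 7 were higher and 1 lower, beside the 2.93% and 2.41% of all tested genes, and for withdrawal against saline 8 were higher and 0 lower, beside 3.96% and 3.37%. Withdrawal and cocaine differed in 0 of the 51, beside 1.02% of all tested genes, by the size and lane rule and with no test. The median difference of the 51 was 0.071 for cocaine and 0.082 for withdrawal against saline, and relative to genes of like length it was 0.082 and 0.012. The genes higher in both comparisons, which share the saline library, were Zim1, Zim3, Ipw, Mest, Kcnk9 and Htr2a. Relative to genes of like length 6 of the 51 were called in each comparison, all higher, beside 4.09% and 5.47% of all genes called in either direction.

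Kcnk9, a maternally expressed potassium channel gene on chromosome 15, had the largest difference among the called genes of the 51 in both comparisons. It was at 6.47, 4.55 and 7.15 RPKM in saline, 19.2, 15.3 and 16.7 RPKM in cocaine and 16.7, 16.1 and 15.0 RPKM in withdrawal. All saline lanes lie below 7.2 RPKM and all others above 14.9 RPKM, differences of 1.44 ± 0.20 and 1.35 ± 0.19 on 35 to 184 reads per lane. Peg13, the paternally expressed non-coding RNA of the same cluster, was at 51.8 to 56.2 RPKM in saline, 60.2 to 61.3 RPKM in cocaine and 56.9 to 62.8 RPKM in withdrawal, 0.18 and 0.14 above saline.

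Mest, a paternally expressed gene for a hydrolase-like protein known in mesoderm and growth, was at 7.42, 8.70 and 9.46 RPKM in saline. It was at 18.6, 16.4 and 18.1 RPKM in cocaine and 16.0, 16.8 and 15.7 RPKM in withdrawal. No saline lane came near the others, with differences of 1.02 ± 0.11 and 0.89 ± 0.10.

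Htr2a, a serotonin receptor gene for which imprinting has been described in some tissues, was at 1.06 to 1.81 RPKM in saline, 2.50 to 3.19 RPKM in cocaine and 2.31 to 2.67 RPKM in withdrawal, with 20 to 85 reads per lane. It differed by 0.84 ± 0.19 and 0.68 ± 0.17. The withdrawal call was lost without saline lane 2. Zdbf2, a paternally expressed zinc finger gene with a model of 12659 bp, was called for cocaine at 0.68 ± 0.038. For withdrawal its lanes also lay above saline, by 0.46 ± 0.048, without a call. Relative to genes of like length it differed by 0.38 and 0.17 and was called in neither. Plagl1, a zinc finger gene of an imprinted growth network, was called for withdrawal at 0.62 ± 0.046, beside 0.43 ± 0.079 for cocaine with lanes apart and no call. Relative to genes of like length Plagl1 differed by 0.52 and Atp10a by 0.58 for withdrawal, and neither was called. Cdkn1c, a maternally expressed inhibitor of cell division, was the single gene called lower, at -0.63 ± 0.24 for cocaine, on 22 to 60 reads per lane. The call was lost without saline lane 3 and without cocaine lane 3, and also with either other scaling of the lanes and relative to genes of like length.

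**Figure D4:**
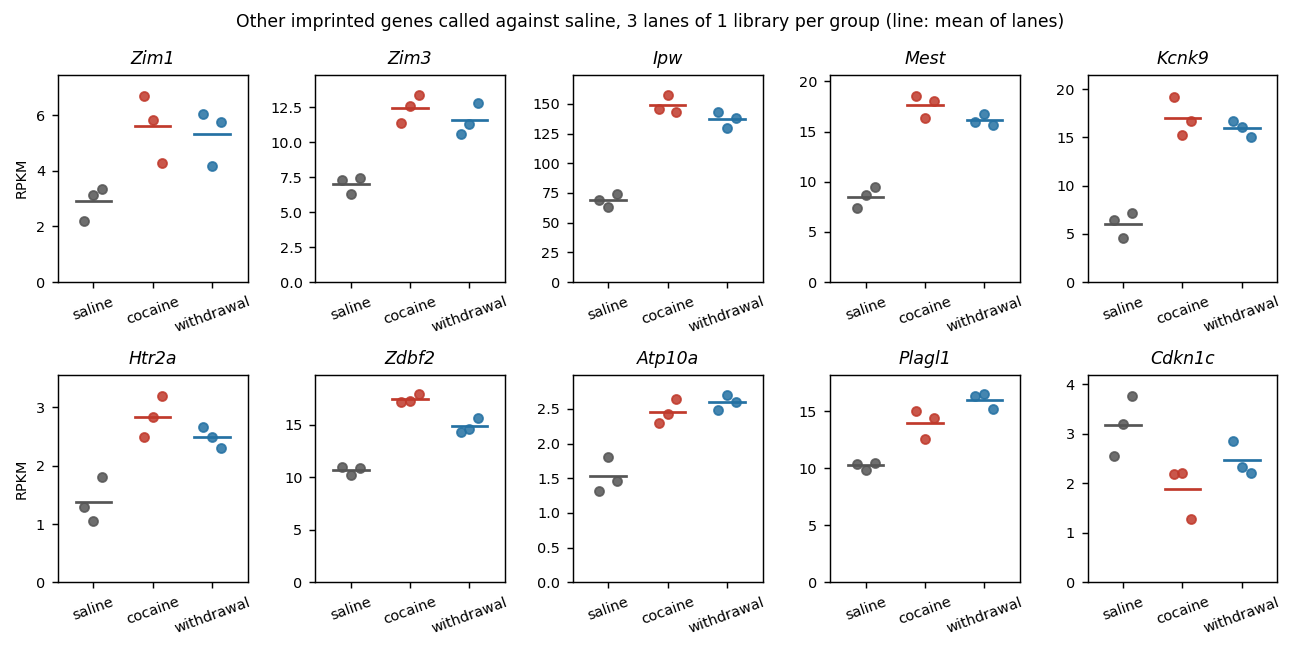
RPKM (vertical axes, each from 0) of the 10 other imprinted genes called against saline in at least 1 comparison. Points are the 3 lanes of each library and lines their means. Kcnk9, Ipw and Mest show the widest gaps between saline and the other libraries, and Cdkn1c is the gene with lower cocaine lanes.

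Genes whose levels followed that of Peg10 most closely over the 9 lanes, among 11253 genes averaging 3 RPKM or more, were Ryr2 (Pearson's r = 0.997), Trpm3 (0.994), Ipw (0.994), Peg3 (0.991) and Psd3 (0.989). The closest to Meg3 were Acsl6 (0.914), 2810403A07Rik (0.914), Cdh7 (0.883), Adcy2 (0.877) and Osbp (0.874). These coefficients describe 3 libraries in 9 lanes, which share library, depth and gene length trends, and were not tested. Between Peg10 and Meg3 r was 0.161.

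The tissue label was checked against markers. All 12 medium spiny neuron markers were present, and their summed level was 2041 to 2140 RPKM in the saline lanes, 1493 to 1583 RPKM in cocaine and 1804 to 1814 RPKM in withdrawal; 2 of 12 were called lower for cocaine and 1 higher for withdrawal. The sum is carried by abundant genes such as Penk, at a mean of 1018, 775 and 840 RPKM, and Ppp1r1b, at 655, 389 and 498 RPKM. The median marker was at 40.8, 42.8 and 51.6 RPKM, and the median difference from saline was -0.26 for cocaine and -0.014 for withdrawal. The 17 markers of septal, preoptic and hypothalamic neurons, cells in which several members are known to be abundant, summed to 361 to 403, 298 to 342 and 304 to 326 RPKM, with none at 0, while the median marker of this list was at 5.18, 6.92 and 6.37 RPKM. Of the 16 tested, 0 were higher and 3 lower for cocaine and 1 was higher and 3 lower for withdrawal. In each comparison 3 of the 16 had lanes wholly above saline, while 6 for cocaine and 5 for withdrawal lay wholly below. The 2 most abundant of this list went opposite ways, Oxt at means of 120, 65.1 and 65.4 RPKM and Baiap3 at 103, 118 and 118 RPKM. Endothelial markers summed to 41.3 to 42.8 RPKM in saline, 55.7 to 61.9 RPKM in cocaine and 63.4 to 72.3 RPKM in withdrawal, and 3 and 5 of 6 were called higher. Cortical projection neuron markers summed to 29.9 to 33.0, 18.0 to 22.0 and 16.4 to 18.4 RPKM, and 1 and 2 of the 4 tested were lower. Choroid plexus and ependymal markers summed to 16.2 to 20.0, 18.5 to 25.0 and 12.8 to 18.0 RPKM; 1 of 5 tested was higher and 1 lower for cocaine, and 0 were called for withdrawal. Astrocyte markers summed to 816 to 845, 736 to 746 and 655 to 688 RPKM. In each comparison 4 of 6 had lanes wholly below saline and the other 2, Aqp4 and Slc1a3, wholly above. The median astrocyte marker was at 49.1, 53.4 and 49.1 RPKM, and the sum is carried by Aldoc, at means of 604, 515 and 467 RPKM. Oligodendrocyte markers summed to 1830 to 1853, 1706 to 1756 and 1656 to 1668 RPKM, and 3 and 4 of 6 lay wholly below saline. Microglia markers summed to 68.8 to 72.0, 67.4 to 68.1 and 64.4 to 72.4 RPKM, and 8 nuclear non-coding RNAs, Meg3 and Rian included, to 3429 to 3482, 3327 to 3457 and 3436 to 3517 RPKM. Most of the latter sum is Meg3 itself, at means of 2618, 2608 and 2673 RPKM. Of the 8 RNAs, 2 lay wholly above and 1 wholly below saline for cocaine, and 3 above and 2 below for withdrawal. No gene of the astrocyte, oligodendrocyte, microglia and nuclear RNA lists was called against saline. Among all tested genes 5.33% were called for cocaine and 7.33% for withdrawal against saline. The part of these cell types in the members' differences was not tested, and in such bulk RNA fewer cells of a type and less RNA per cell cannot be told apart.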

How the data were processed

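RPKM values per gene, lane and library were made by the authors and deposited as 1 table for the series, with a total per lane, per the file headers. The submitters' processing notes name the aligner Bowtie (0.12.7) and the mouse build mm9; the counter, the annotation and the use of strand are not given in the sources used here. Groups and lane numbers came from the sample titles. The deposited composite RPKM of a library equalled the depth-weighted mean of its lanes to a relative gap of 6.9e-14.

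The members, the gene lists (other imprinted genes, clusters, near copies, cell type markers), the rule for named genes and the alternatives were chosen with earlier results of these data known. Named genes are the members, the listed genes (other imprinted genes where called or in a member's cluster), and the 5 genes of highest Pearson's r with Peg10 and with Meg3. The microRNA list was added later.

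Values were compared as log2(RPKM + 0.5), a scale on which low genes change less, by the size and lane rule, over all 14051 genes averaging 1 RPKM or more, in Python 3.11.15 with pandas 2.3.3 and NumPy 2.4.6. The rule was tested on simulated data. Reads per gene and gene model lengths were recovered from the values: for each of 21423 genes the smallest length was taken at which every lane gave a whole multiple of 1/37 read, within a relative tolerance of 6e-13. Of these, 107 lengths (14 tested genes) were then multiplied by 37 after comparison with the reference or where shorter than a read, and lengths had a median ratio of 1.06 to the reference. Counting errors cover counting alone. As the reference genome (GRCm38) is not the build of the files, no coordinates of the measured genes are given; promoter and microRNA sequences are RefSeq's (GRCm38.p6) and overlaps are from GENCODE vM21. Alternatives changed the pseudocount, filter, size limit, lane condition, scaling, length centring and lanes used.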

Additional observations from a re-analysis of the deposited data

How the results depend on the processing

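Under a size limit of 2 times 0 members were called for cocaine and 0 for withdrawal against saline, beside 1.04% and 1.35% of all tested genes. A limit of 5/4 times gave 4 of 10 for withdrawal, adding Ndn and Snrpn as lower, beside 26.3% of all genes, and 2 of 10 for cocaine, beside 21.9%. Centring by gene length left 1 member for cocaine (Peg10) and 0 for withdrawal, by construction through the subtracted medians. Of the other imprinted genes, 5 were called in each comparison with saline under a filter of 5 RPKM, which tests fewer genes, 16 and 15 at 5/4 times, and 3 and 1 at 2 times. Leaving out each lane in turn gave 2 members called in every case for both comparisons and 0 between withdrawal and cocaine, and 8 to 9 (cocaine), 7 to 9 (withdrawal) and 0 of the other imprinted genes. Of 540 recomputed differences of single members, 507 stayed within 1 SD over lanes of the main value, 33 moved further and 0 of the called ones changed sign. Settings that change only the filter, the size limit, the lane condition or the replicate block leave a difference as it was. Part of the 507 was thus fixed in advance, and the count is no measure of stability. Lanes with the same number did not vary together (correlations of deviations from -0.051 to 0.076), so they share only a number. Comparing them as a replicate block gave 2, 2 and 0 members and 8, 8 and 0 other imprinted genes, as without the block. The block can only add calls, because lanes that do not overlap also differ in 1 direction lane by lane, so this is no check of pairing. Scaling lanes to the 75th percentile of tested genes shifted the median of all genes by 0.066 and 0.068 and changed no member's call. Depth limits the genes given with few reads per lane, and 1 library per group limits every comparison.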

Other observations

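The 29 tested microRNA rows of the Dlk1 to Dio3 interval gave a few calls on very low read numbers. For cocaine against saline 1 row was higher and 1 lower, beside 2.93% and 2.41% of all tested genes. Mir3070a was higher, with saline lanes of 0.328, 0 and 0 RPKM and at most 3.43 reads in any lane. Mir431, which overlaps an exon of Rtl1, was lower, with 9.80, 10.0 and 5.89 RPKM in saline and 4.08, 2.99 and 4.42 RPKM in cocaine. For withdrawal against saline 3 rows were higher, Mir3070a, Mir485 and Mir453, beside 3.96% of all tested genes. They had at most 5 reads in any lane. Against cocaine 2 were higher, Mir431 and Mir369, beside 1.02% of all tested genes called in either direction. The host Rtl1 was not called, at 5.87 to 7.40 RPKM over the lanes, and reads of Rtl1 and of transcripts on the other strand cannot be told apart without the strand.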
